A study of Rattus norvegicus with 27 samples.

Results

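The AP-1 family was described here as the mRNA of 9 genes in cultured rat Schwann cells, the glia that wrap the axons of peripheral nerves. The members were the Jun genes *Jun*, *Junb* and *Jund*, the Fos genes *Fos*, *Fosb*, *Fosl1* and *Fosl2*, and the related genes *Atf3* and *Batf3*. They were chosen by name, and all 9 had a row among the 17315 genes of the cell mRNA table. Of these, 8 passed the filter on low counts and were tested with the 10372 genes that passed. *Batf3* did not pass.

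AP-1 is a transcription factor made of pairs of proteins joined by a leucine zipper. Jun proteins pair with each other or with Fos and ATF proteins, and Fos proteins need a Jun partner to bind DNA. In peripheral nerve, c-Jun, the product of *Jun*, is known for its rise after injury and for driving the repair state of Schwann cells, in which myelin genes are shut down and trophic factors are made. *Fos*, *Fosb* and *Junb* are best known as immediate-early genes, whose mRNA rises quickly and briefly after a stimulus.

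Purchased primary rat Schwann cells were sampled at 3 stages, with 3 libraries per stage that the labels call biological replicates. Undifferentiated cells were kept without dibutyryl cyclic AMP (dbcAMP), an analogue of the second messenger cyclic AMP that enters cells. Differentiated cells were kept for 72 h in low-serum medium with 1 mM dbcAMP, after a night in the same medium without it. Dedifferentiated cells had the same 72 h of dbcAMP followed by 72 h without it, in a richer medium that held more serum, neuregulin and forskolin, an activator of adenylyl cyclase. The labels leave the medium of the undifferentiated cells unstated apart from its lack of dbcAMP, and the withdrawal of dbcAMP coincided with the change of medium, so stage and medium cannot be told apart. No nerve was injured in this design. The labels do not say that the libraries of a stage came from separate cultures, so the p-values may measure technical spread.

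The 9 libraries held 10058735 to 16212278 counts, and the level that 3 counts can show was 0.185 to 0.298 CPM, the count of a gene scaled to the total of its library. Replicates 1 and 2 carry the name of 1 sequencing project in the labels and replicate 3 that of another, in every stage. The Schwann cell markers *Sox10* and *S100b* were abundant at each stage, with mean levels of 1045 to 1458 CPM for *Sox10*. The summed level of the 6 measured Schwann cell markers was 7969 to 9227 CPM in undifferentiated, 8403 to 11020 CPM in differentiated and 18230 to 21130 CPM in dedifferentiated libraries. The 7 fibroblast markers summed to 24490 to 29180, 12930 to 16660 and 16010 to 19380 CPM in the same order. Most of that sum came from *Col1a1*, *Col1a2* and *Postn*, with highest stage means of 17150, 8981 and 997.3 CPM. *Lum* was at 0, and *Dcn*, *Pdgfra* and *Thy1* were at or below 0.884, 0.884 and 1.92 CPM in every library. Genes of this list thus differed widely in level, and the share of fibroblasts was not measured. The 5 macrophage markers summed to 0.322 to 1.64, 3.64 to 5.09 and 1.88 to 3.65 CPM, with *Aif1* at 0, and the 4 endothelial markers to 0.37 to 1.28 CPM over all libraries, with *Cdh5* at 0. The 4 mural cell markers summed to 121 to 152, 539 to 806 and 320 to 343 CPM, with *Rgs5* at 0. *Pdgfrb* made up most of this sum, with stage means of 135.8, 673.8 and 321.5 CPM. *Acta2* went the other way, with stage means of 3.16, 0.199 and 7.30 CPM. The part of these levels in the results on AP-1 was not tested.

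RefSeq entries of the rat assembly GRCr8 gave the 250 bases upstream of the start for 6 of the 9 members and none for *Jun*, *Fos* and *Atf3*, which were not searched. The windows of 3 genes that responded differently are shown because dbcAMP activates the CREB factors, which bind the cyclic AMP response element TGACGTCA, and because AP-1 binds the site TGACTCA. Capitals mark these motifs and the shorter core TGACG or its reverse complement CGTCA.
*Junb*, chr19:40080876-40081125, plus strand: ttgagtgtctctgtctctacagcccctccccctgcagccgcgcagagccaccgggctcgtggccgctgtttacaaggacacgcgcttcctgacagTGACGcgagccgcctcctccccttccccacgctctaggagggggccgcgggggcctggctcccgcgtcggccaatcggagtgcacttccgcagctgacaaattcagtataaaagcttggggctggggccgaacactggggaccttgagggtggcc
*Jund*, chr16:18769772-18770021, minus strand: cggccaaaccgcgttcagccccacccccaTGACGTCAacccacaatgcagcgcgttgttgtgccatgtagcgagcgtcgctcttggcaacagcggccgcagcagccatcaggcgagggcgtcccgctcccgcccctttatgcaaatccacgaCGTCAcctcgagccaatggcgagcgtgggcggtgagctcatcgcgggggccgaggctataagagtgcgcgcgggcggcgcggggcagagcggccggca
*Fosl2*, chr6:30039270-30039519, minus strand: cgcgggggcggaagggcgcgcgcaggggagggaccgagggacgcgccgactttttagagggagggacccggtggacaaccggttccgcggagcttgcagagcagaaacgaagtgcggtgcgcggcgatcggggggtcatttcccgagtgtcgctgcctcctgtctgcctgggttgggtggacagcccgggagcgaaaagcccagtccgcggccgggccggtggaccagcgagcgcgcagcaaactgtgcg
The full element TGACGTCA was found only for *Jund* among the 6, at 221 to 214 bases upstream, and 1.59% of 33469 RefSeq windows of this length held it on either strand. *Jund* also held CGTCA at 98 to 94 bases upstream. *Junb* held TGACG at 155 to 151 bases upstream, and *Fosl1* held CGTCA at 148 to 144 and at 84 to 80 bases upstream. This core, which is also part of the full element, was present in 18.2% of the windows. *Fosl2* and *Batf3* held none of the letters searched, and neither did *Fosb*, whose window lies inside its annotated gene. None of the 6 held the AP-1 site TGACTCA, present in 4.05% of the windows, or the CArG box bound by serum response factor, present in 1.5%. These matches describe the letters of the windows only.

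In differentiated against undifferentiated cells, *Jun*, *Fosl2* and *Atf3* fell by over 10-fold, while *Fos*, *Fosb* and *Junb* rose, and *Jund* and *Fosl1* were not called. After withdrawal each of the 6 changed genes moved back the other way. In dedifferentiated cells *Jun* and *Atf3* were not called different from undifferentiated cells, and *Fosl2* remained lower. A call here is an adjusted p under 0.05 over all 10372 genes from edgeR's quasi-likelihood test, and log2 changes are from that fit. Since levels in CPM are not per length, they are compared between stages and not between genes.

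**Figure D1:**
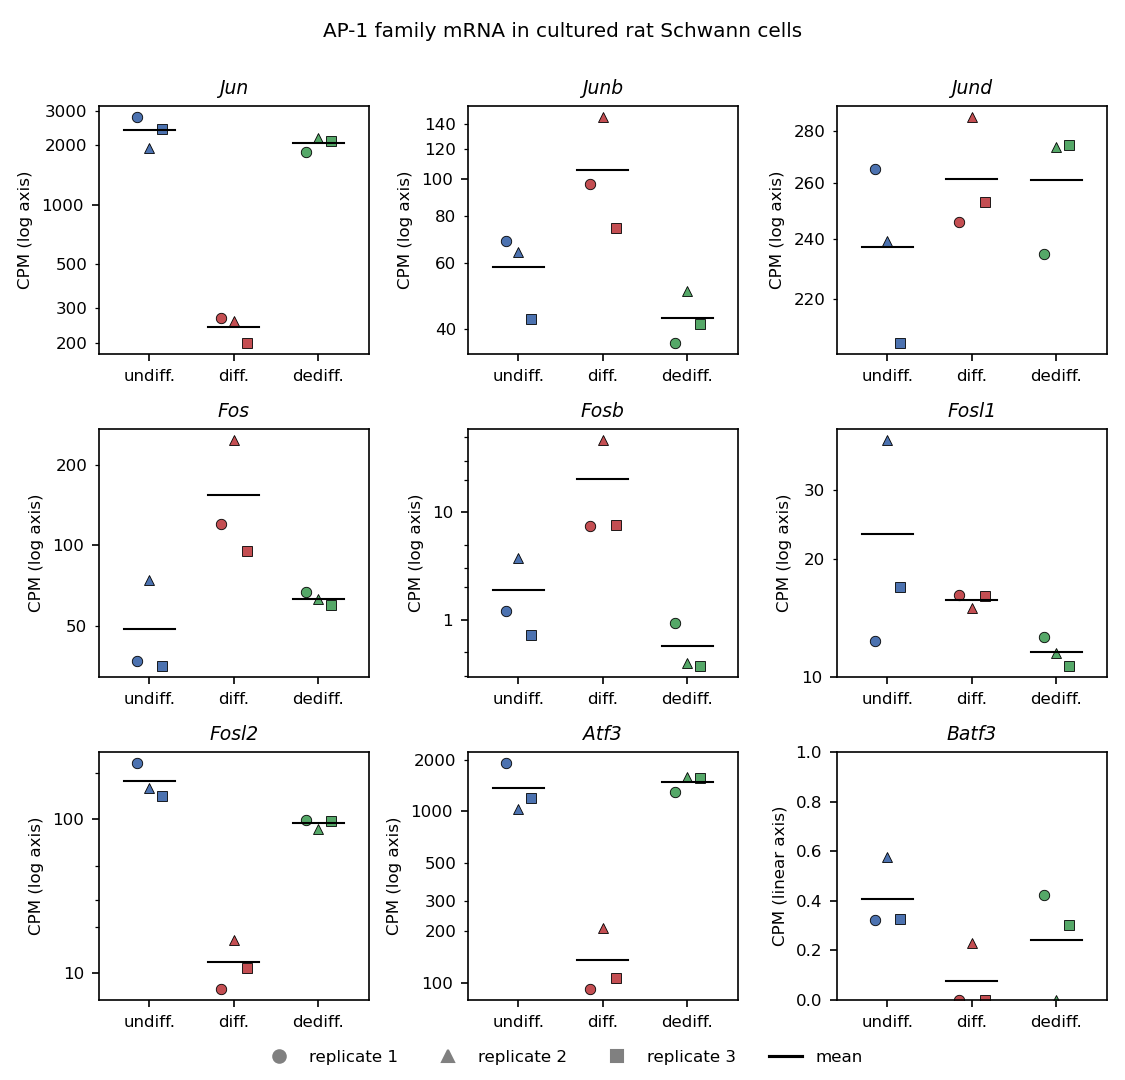
CPM of the 9 AP-1 genes in each of the 9 libraries, with 1 panel per gene, stages on the horizontal axis, symbols for replicates and a line for the mean of 3; axes are logarithmic except for *Batf3*. The 3 differentiated libraries lie lowest for *Jun* (201 to 266.9 CPM), *Fosl2* and *Atf3*, and highest for *Fos*, *Fosb* and *Junb*.

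*Jun* encodes c-Jun. Its mRNA measured 2770, 1934 and 2430 CPM in undifferentiated replicates 1 to 3, 266.9, 257.8 and 201 CPM in differentiated replicates, and 1858, 2185 and 2112 CPM in dedifferentiated replicates. The 3 differentiated libraries were all far below the other 6, and the undifferentiated and dedifferentiated libraries overlapped. *Jun* fell by 3.36 on the log2 scale (SE 0.17), or 10.3-fold, with dbcAMP (edgeR adjusted p = 6.6e-08). In bulk RNA, fewer cells that express a gene and less of its RNA per cell cannot be told apart. *Jun* rose 8.55-fold after withdrawal (log2 3.10, SE 0.17, edgeR adjusted p = 3.3e-07). Dedifferentiated cells had 0.833 times the undifferentiated level, with a 95% interval of 0.658 to 1.05 (edgeR adjusted p = 0.228). In the sequencing project of replicates 1 and 2 alone, the log2 changes with dbcAMP and after withdrawal were -3.24 and 2.96.

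*Fosl2* encodes Fra-2, a Fos-related partner of the Jun proteins that lacks the strong activation domain of c-Fos. Its levels were 232, 160.5 and 143.2 CPM in undifferentiated, 7.88, 16.4 and 10.8 CPM in differentiated, and 99.6, 86.1 and 97.5 CPM in dedifferentiated replicates 1 to 3. No stage overlapped another. *Fosl2* fell 16.1-fold (log2 -4.00, SE 0.26, edgeR adjusted p = 4.2e-07), the largest fall among the 8 tested members. It rose 8.18-fold after withdrawal (log2 3.03, SE 0.26, edgeR adjusted p = 6.8e-06). Its return was incomplete in these libraries: dedifferentiated cells had 0.509 times the undifferentiated level (95% interval 0.36 to 0.72, edgeR adjusted p = 0.00864). For replicates 1 and 2 alone the 3 log2 changes were -4.10, 2.95 and -1.14, and the last was not called there (edgeR adjusted p = 0.0516).

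*Atf3* encodes a stress-induced ATF factor that pairs with Jun proteins and is a common marker of nerve injury. It measured 1909, 1030 and 1199 CPM in undifferentiated, 92.0, 208.6 and 105.7 CPM in differentiated, and 1290, 1580 and 1575 CPM in dedifferentiated replicates 1 to 3. As for *Jun*, the differentiated libraries stood apart below and the other stages overlapped. *Atf3* fell 10.7-fold (log2 -3.42, SE 0.33, edgeR adjusted p = 7.6e-06). It rose 11.1-fold after withdrawal (log2 3.47, SE 0.33, edgeR adjusted p = 1.6e-05). The dedifferentiated level was 1.03 times the undifferentiated level, with a 95% interval of 0.653 to 1.63 (edgeR adjusted p = 0.926). With replicates 1 and 2 alone the corresponding log2 changes were -3.38 and 3.28.

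*Fos* encodes c-Fos, the founding partner of c-Jun. It measured 37.1, 74.4 and 35.7 CPM in undifferentiated, 120.5, 245.9 and 95.6 CPM in differentiated, and 67.1, 63.0 and 59.9 CPM in dedifferentiated replicates 1 to 3. Differentiated libraries were above all others, and replicate 2 was the highest of its stage in both undifferentiated and differentiated cells. *Fos* rose 3.01-fold with dbcAMP (log2 1.59, SE 0.35, edgeR adjusted p = 0.00269). It fell 2.4-fold after withdrawal (log2 SE 0.35, edgeR adjusted p = 0.0127). Without differentiated replicate 2 that log2 change was -0.77 and not called (edgeR adjusted p = 0.0501). Against undifferentiated cells the dedifferentiated level was 1.25 times as high, with a 95% interval of 0.731 to 2.15 (edgeR adjusted p = 0.527). The project of replicates 1 and 2 alone gave log2 changes of 1.64 with dbcAMP and -1.47 after it.

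*Fosb* encodes FosB, another immediate-early partner of the Jun proteins. Its mRNA was scarce, with 1.21, 3.75 and 0.72 CPM in undifferentiated, 7.37, 46.2 and 7.65 CPM in differentiated, and 0.932, 0.398 and 0.376 CPM in dedifferentiated replicates 1 to 3. These rest on 4 to 39 counts in each undifferentiated or dedifferentiated library and on 100 to 599 counts in the differentiated ones. Differentiated libraries lay above all others, and replicate 2 again stood highest in the first 2 stages. *Fosb* rose 10.8-fold (log2 3.43, SE 0.81, edgeR adjusted p = 0.00382) and on withdrawal fell 34.7-fold (log2 -5.12, SE 0.95, edgeR adjusted p = 0.00139). The size of both changes depended on 1 library, since without differentiated replicate 2 the rise was 3.95-fold (edgeR adjusted p = 0.0144) and the fall was 12.9-fold (edgeR adjusted p = 0.00171). Without undifferentiated replicate 2 the rise was 19.8-fold (edgeR adjusted p = 0.00399). Dedifferentiated and undifferentiated cells were not called different, with an interval of 0.0557 to 1.73 times (edgeR adjusted p = 0.292). Replicates 1 and 2 alone gave 3.38 and -5.25 on the log2 scale.

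*Junb* encodes JunB, which pairs with Fos proteins and can oppose c-Jun at some promoters. It measured 68.4, 64.0 and 42.7 CPM in undifferentiated, 97.2, 145.9 and 74.4 CPM in differentiated, and 36.8, 50.5 and 41.3 CPM in dedifferentiated replicates 1 to 3. Differentiated libraries were the highest, by a narrow margin between 68.4 and 74.4 CPM. *Junb* rose 1.73-fold (log2 0.79, SE 0.25, edgeR adjusted p = 0.0178), and the call was lost without differentiated replicate 2 (log2 0.50, edgeR adjusted p = 0.0811) or undifferentiated replicate 3 (log2 0.59, edgeR adjusted p = 0.0678). After withdrawal it fell 2.45-fold (log2 -1.29, SE 0.25, edgeR adjusted p = 0.00192). The dedifferentiated level was 0.708 times the undifferentiated level, with a 95% interval of 0.48 to 1.04 (edgeR adjusted p = 0.167). In the project of replicates 1 and 2 alone both calls held, the rise at 0.80 and the second log2 change at -1.46.

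*Jund* encodes JunD, the Jun protein that is expressed broadly in resting cells. It measured 265.4, 239 and 206.6 CPM in undifferentiated, 245.8, 285.7 and 252.8 CPM in differentiated, and 234.6, 273.6 and 274.7 CPM in dedifferentiated replicates 1 to 3. All 3 stages overlapped. Differentiated over undifferentiated gave a log2 change of 0.08, with a 95% interval of -0.18 to 0.33 (edgeR adjusted p = 0.585). Dedifferentiated over differentiated gave 0.01, with an interval of -0.24 to 0.26 (edgeR adjusted p = 0.95). Dedifferentiated over undifferentiated gave 0.09, with an interval of -0.17 to 0.34 (edgeR adjusted p = 0.616). In replicates 1 and 2 alone the 3 log2 changes lay between -0.0502 and -0.00062.

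*Fosl1* encodes Fra-1, a Fos-related protein often induced by growth factor signalling. It measured 12.3, 40.1 and 16.9 CPM in undifferentiated, 16.2, 15.0 and 16.0 CPM in differentiated, and 12.6, 11.5 and 10.7 CPM in dedifferentiated replicates 1 to 3. Undifferentiated replicate 2 stood above every other library. The differentiated change was not called (log2 -0.60, 95% interval -1.35 to 0.15, edgeR adjusted p = 0.15), and it was called without undifferentiated replicate 1 (log2 -0.89, edgeR adjusted p = 0.0216). That was the only call among the 14 alternatives, over which the log2 change ran from -0.89 to 0.012. The change on withdrawal was not called (log2 -0.43, 95% interval -1.20 to 0.35, edgeR adjusted p = 0.342), although every differentiated library lay above every dedifferentiated one, and it was called when only those stages were fitted (edgeR adjusted p = 0.0297). Dedifferentiated cells were called lower than undifferentiated cells (log2 -1.03, SE 0.35, edgeR adjusted p = 0.0476) with overlapping libraries. Without undifferentiated replicate 2 that change was -0.40 and not called (edgeR adjusted p = 0.103). Replicates 1 and 2 alone gave -1.16 (edgeR adjusted p = 0.158).

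*Batf3* encodes a small AP-1 factor without an activation domain, known from dendritic cells. It had 4, 6 and 5 counts in undifferentiated, 0, 3 and 0 in differentiated, and 5, 0 and 4 in dedifferentiated replicates 1 to 3. The 3 undifferentiated libraries, at 0.322 to 0.577 CPM, lay above the differentiated ones, at 0 to 0.232 CPM, and overlapped the dedifferentiated ones. These counts lie near the level that 3 counts can show, and the gene was not tested.

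**Figure D2:**
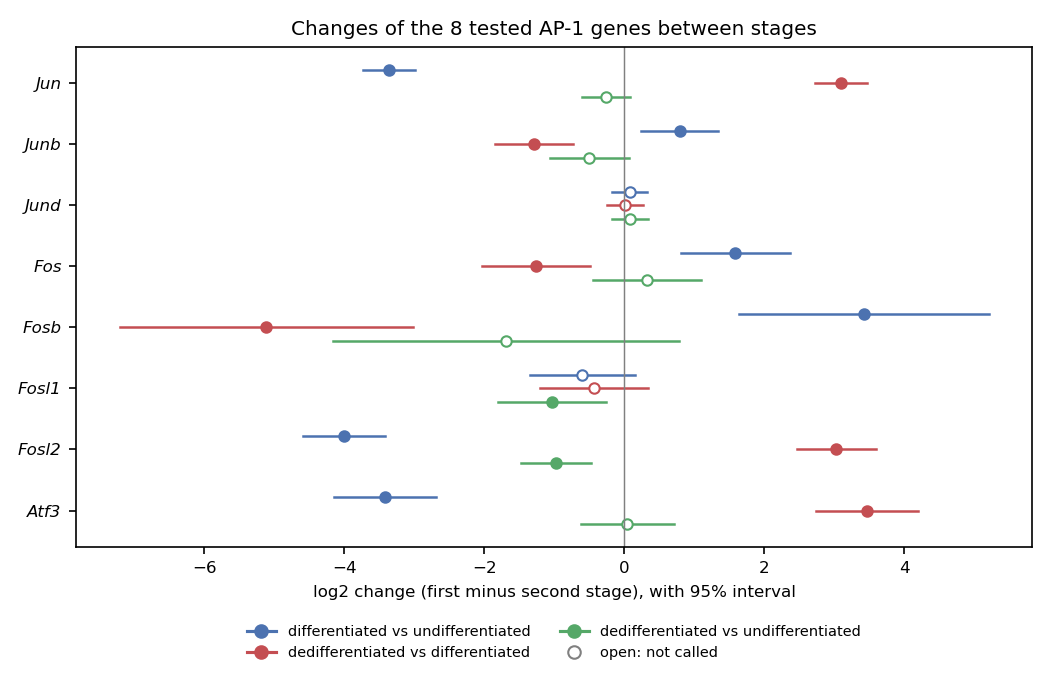
Log2 changes of the 8 tested AP-1 genes with 95% intervals for the 3 comparisons of stages; filled points were called at an adjusted p under 0.05 and open points were not. *Jun*, *Fosl2* and *Atf3* lie below 0 with dbcAMP and above 0 after withdrawal, *Junb*, *Fos* and *Fosb* show the opposite, and the intervals of *Jund* cross 0 in all 3.

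With dbcAMP, 3 of 8 tested members rose and 3 fell, where over all tested genes 31.7% were called higher and 27.9% lower. For 6 of 8 members no library of 1 stage lay within the range of the other, which held for 66.3% of all tested genes. On withdrawal 3 members rose and 3 fell, against 23.2% called higher and 23.2% called lower over all tested genes. For this comparison 7 of 8 members had libraries that did not overlap, against 58.5% of the tested genes. Between dedifferentiated and undifferentiated cells no member was called higher and 2 were called lower, *Fosl2* and *Fosl1*. The shares over all tested genes were 16.1% higher and 13.3% lower. Only *Fosl2* of the 8 had libraries that did not overlap here, against 43.9% of the tested genes. The median log2 change over members was -0.26, -0.21 and -0.38 in the 3 comparisons, beside 0.053, -0.0072 and 0.018 over all tested genes. Rises and falls were equal in number in the first and second comparison. The comparisons share libraries, so their values stand side by side and are not independent of each other.

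The differentiated stage was the lowest for *Jun*, *Fosl2* and *Atf3* and the highest for *Fos*, *Fosb* and *Junb*. Over the 9 libraries the log2 CPM of *Jun* correlated with that of *Atf3* (Pearson r = 0.979) and *Fosl2* (r = 0.97), and *Atf3* with *Fosl2* (r = 0.964). The correlation of *Jun* was -0.82 with *Fos*, -0.836 with *Fosb* and -0.728 with *Junb*, while *Jund* and *Fosl1* stood near 0 with -0.099 and -0.02. These r describe 9 libraries and mix differences between stages with those within a stage. The ratio of *Jun* to *Fos* counts within a library was 74.6, 26.0 and 68.0 in undifferentiated, 2.22, 1.05 and 2.10 in differentiated, and 27.7, 34.7 and 35.3 in dedifferentiated replicates 1 to 3. The ratio of *Jun* to *Junb* counts was 40.5, 30.2 and 57.0, then 2.75, 1.77 and 2.70, then 50.5, 43.3 and 51.1 in the same order. These pairs were picked after their values were seen, and the ratios of counts are not corrected for length. Both ratios fell under dbcAMP, as the opposite changes of their genes imply, and after withdrawal both lay within the undifferentiated range. The ratio of *Fosl2* to *Fos* counts did not return to that range. It was 6.25, 2.16 and 4.01 in undifferentiated and 1.49, 1.37 and 1.63 in dedifferentiated replicates 1 to 3.

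By log2 CPM over the 9 libraries, the 5 tested genes outside the family most like *Jun* were *Numbl* (r = 0.997), *Jade2* (r = 0.995), *Rnh1*, *Pcdh20* and *Anxa11* (r = 0.992 each). *Numbl*, an adaptor related to the Notch inhibitor Numb, measured 284 ± 19.4 CPM in undifferentiated, 69.8 ± 2.86 CPM in differentiated and 267.3 ± 20.1 CPM in dedifferentiated cells (SD, n = 3). *Pcdh20*, a protocadherin, measured 388.7 ± 22.5, 1.76 ± 0.494 and 214.3 ± 52.4 CPM in the same order (SD, n = 3). Each of these genes was lowest in the differentiated stage, which follows from their choice by correlation with *Jun* over the same libraries.

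Spread within a stage differed among the members. The highest library of a stage exceeded the lowest by 5.21, 6.27 and 2.48 times for *Fosb* and by 2.08, 2.57 and 1.12 times for *Fos* in undifferentiated, differentiated and dedifferentiated cells. For *Jun* these ratios were 1.43, 1.33 and 1.18, and for *Jund* 1.28, 1.16 and 1.17. The median over all tested genes was 1.23, 1.2 and 1.22. Replicate 2 was the highest library in both undifferentiated and differentiated cells for 2 of 8 members, *Fos* and *Fosb*, and for 9 of 18 other immediate-early genes. Over all tested genes the share was 14.5%. It was 6 of 18 genes in the ERK list and 3 of 21 in the JNK and p38 list.

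The 18 other immediate-early genes, a list of rapid-response transcripts, had 5 rising, 7 falling and 6 not called with dbcAMP, with a median log2 change of -0.36. These counts ranged from 3 to 5 rising and from 4 to 8 falling over the 14 alternative analyses. Over all tested genes, 31.7% were called higher and 27.9% lower with dbcAMP, and 23.2% each way on withdrawal. Between dedifferentiated and undifferentiated cells the shares were 16.1% and 13.3%. The counts of this list and of those below stand beside these shares, and no list was tested against them. For the genes around AP-1, a rise or fall by a value is a log2 change unless a fold is named. *Nr4a1*, an orphan nuclear receptor induced by cyclic AMP, measured 84.2, 134 and 76.9 CPM in undifferentiated, 420.9, 863.7 and 376.9 CPM in differentiated, and 72.7, 116.3 and 113.7 CPM in dedifferentiated replicates 1 to 3. It rose 5.39-fold (edgeR adjusted p = 0.000105) and fell 5.44-fold on withdrawal (edgeR adjusted p = 0.000186), the order of stages shown by *Fos*. *Myc*, a growth regulator, rose 4.88-fold with dbcAMP (edgeR adjusted p = 0.00049), or 7.42-fold without undifferentiated replicate 2, and fell 8.00-fold on withdrawal. *Klf2* and *Klf6*, Krüppel-like factors, moved the other way, with log2 changes of -3.67 and -1.76 under dbcAMP and 4.10 and 1.14 after it, where *Klf6* was not called in replicates 1 and 2 alone (edgeR adjusted p = 0.0615). *Egr1*, which encodes a zinc finger factor induced by ERK signalling, was not called with dbcAMP: it measured 12.5, 53.4 and 2.03 CPM in undifferentiated and 10.2, 140.2 and 17.1 CPM in differentiated replicates 1 to 3 (edgeR adjusted p = 0.315, log2 interval -1.02 to 3.53). In dedifferentiated cells *Egr1* was at 0.678, 0.0994 and 0.526 CPM, and the log2 change on withdrawal was -6.89 (edgeR adjusted p = 0.00602). Without differentiated replicate 2 it was -4.88 (edgeR adjusted p = 0.0145). On withdrawal 4 of the 18 rose, 6 fell and 8 were not called, with a median of -0.71 and a range of 1 to 6 rising and 6 to 7 falling. Between dedifferentiated and undifferentiated cells none was called higher (0 to 1 over the alternatives) and 3 were called lower (1 to 9), with a median of -0.59.

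**Figure D3:**
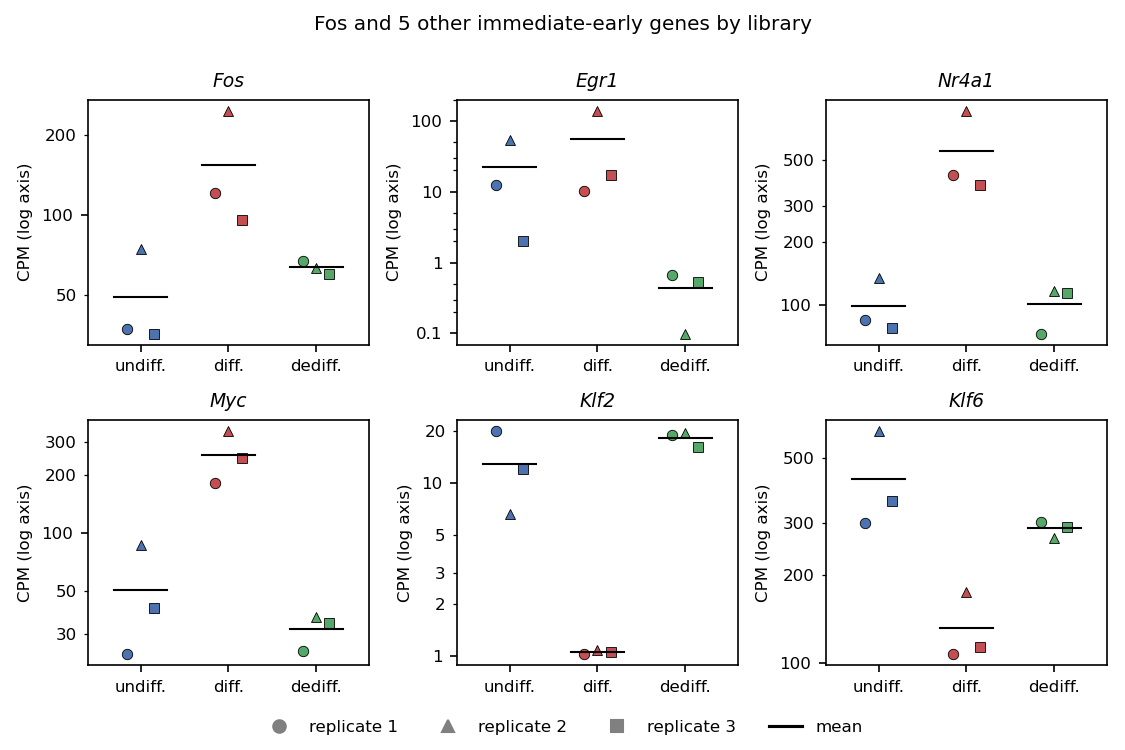
CPM on logarithmic axes of *Fos* and 5 other immediate-early genes in each library, with stages on the horizontal axis, symbols for replicates and a line for the mean of 3. *Fos*, *Nr4a1* and *Myc* were highest in the 3 differentiated libraries, *Klf2* and *Klf6* lowest there, and triangles mark replicate 2, the highest undifferentiated and differentiated library for *Fos*, *Egr1*, *Nr4a1*, *Myc* and *Klf6*.

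JNK is the kinase named for phosphorylating c-Jun, and p38 is its stress-activated relative. Of 24 genes of these cascades, 21 were tested. With dbcAMP 9 rose, 6 fell and 6 were not called (median log2 change 0.035), with 6 to 9 rising and 4 to 7 falling over the alternatives. All tested genes gave 31.7% higher and 27.9% lower. *Mapk8*, which encodes JNK1, fell by 0.77 (edgeR adjusted p = 8.9e-05) and its change after withdrawal was not called, with 61.7 ± 4.7, 37.7 ± 3.25 and 39.8 ± 1.69 CPM at the 3 stages (SD, n = 3). *Mapk9*, which encodes JNK2, fell by 0.39 (edgeR adjusted p = 0.00176), from 156.2 ± 8.21 to 124.7 ± 7.4 CPM (SD, n = 3), a call lost within the project of replicates 1 and 2 (edgeR adjusted p = 0.0616). *Map3k12*, which encodes the kinase DLK known from injured neurons, fell by 0.73 and rose by 0.70 after withdrawal. *Dusp16*, a phosphatase that removes phosphate from JNK, rose by 2.81 (edgeR adjusted p = 1.1e-07), from 18.1 ± 1.19 to 133.2 ± 12.7 CPM, and was at 70.0 ± 15.6 CPM in dedifferentiated cells (SD, n = 3). *Map3k1*, an upstream kinase, rose by 1.12 and was not called on withdrawal. On withdrawal 2 of the 21 rose, 4 fell and 15 were not called, with a median of -0.045, and these counts ranged from 1 to 4 and from 2 to 5. Dedifferentiated cells had 7 of the 21 genes higher than undifferentiated cells (3 to 8 over the alternatives) and 2 lower (1 to 3), with a median of -0.03. These libraries hold mRNA, so phosphorylation of c-Jun was not measured.

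The ERK cascade feeds the Fos genes and Fra-1, and it is damped by its own induced inhibitors. Of 18 genes, 9 rose, 6 fell and 3 were not called with dbcAMP, with a median log2 change of 0.44. The shares over all tested genes were 31.7% higher and 27.9% lower. *Dusp4*, an ERK phosphatase, went from 0.806, 6.73 and 8.18 CPM in undifferentiated to 243.9, 316.4 and 259.4 CPM in differentiated replicates 1 to 3, a log2 change of 5.63 (edgeR adjusted p = 1.4e-06). It returned to 8.22, 6.56 and 8.95 CPM after withdrawal. *Etv5*, an ETS factor downstream of ERK, rose by 2.73 and fell by 2.78 on withdrawal, to 14.9 ± 5.86 CPM against 14.9 ± 7.21 CPM in undifferentiated cells (SD, n = 3). *Elk3*, an ETS partner of serum response factor, fell by 2.16, and *Map2k1*, which encodes MEK1, fell by 1.04. On withdrawal 11 of the 18 fell, 3 rose and 4 were not called, with a median of -0.63, while within the project of replicates 1 and 2 the number falling was 5. Against undifferentiated cells 1 of the 18 was higher after withdrawal (0 to 2 over the alternatives) and 4 were lower (3 to 6), with a median of -0.047.

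Of 15 other leucine zipper genes that can pair with AP-1 proteins or with each other, 12 were tested. With dbcAMP 3 rose, 7 fell and 2 were not called (median log2 change -0.36), and the falls ranged from 3 to 7 over the alternatives. Among all tested genes 31.7% rose and 27.9% fell. *Maf*, a large Maf factor, rose by 2.96 (edgeR adjusted p = 5.6e-08), from 17.5 ± 0.484 to 141.1 ± 18 CPM, and fell by 0.86 after withdrawal (edgeR adjusted p = 0.00041), to 77.2 ± 13.2 CPM (SD, n = 3). *Nfe2l2*, which encodes the oxidative stress factor NRF2, rose by 0.95, and *Atf2*, a Jun partner phosphorylated by JNK, fell by 0.45. On withdrawal 3 of the 12 rose, 3 fell and 6 were not called, with a median of 0.19. Against undifferentiated cells 3 were higher after withdrawal and 2 were lower (0 to 3 over the alternatives), with a median of -0.21.

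Genes described in the literature as needing c-Jun in repair Schwann cells formed a list of 12, of which 11 were tested; it was chosen with earlier results of these data known, so its direction is no independent evidence. With dbcAMP 10 fell and 1 rose, with a median log2 change of -1.94, where 27.9% of all tested genes fell and 31.7% rose. After withdrawal 8 rose, 1 fell and 2 were not called, with a median of 1.66, where 23.2% of all tested genes moved each way. *Gap43*, a growth-associated protein, measured 744, 865.5 and 859.1 CPM in undifferentiated, 0.442, 0.386 and 0 CPM in differentiated, and 164.4, 126.2 and 120.3 CPM in dedifferentiated replicates 1 to 3. *Bdnf*, a neurotrophin, fell by 4.88 (edgeR adjusted p = 4.2e-08), from 75.6 ± 17.2 to 2.67 ± 0.536 CPM, and was at 33.1 ± 5.07 CPM after withdrawal (SD, n = 3). *Ngfr*, which encodes the p75 neurotrophin receptor, fell by 2.01 (edgeR adjusted p = 8.1e-07) and rose by 1.71 (edgeR adjusted p = 6.4e-06), with 4423 ± 768, 1148 ± 101.1 and 3722 ± 135.2 CPM at the 3 stages (SD, n = 3). The gene that rose with dbcAMP was *Ncam1*, an adhesion molecule, with a log2 change of 0.58 (edgeR adjusted p = 0.0291), and the count of rising genes was 0 to 1 over the alternatives. Between dedifferentiated and undifferentiated cells 1 was higher, 4 were lower (2 to 6 over the alternatives) and 6 were not called, with a median of -0.63. *Gap43* and *Bdnf* were among those lower, at -2.63 and -1.24, while *Jun* itself was not called in that comparison.

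The 19 textbook AP-1 targets from other tissues gave 13 tested genes. With dbcAMP 7 rose, 5 fell and 1 was not called (median log2 change 0.33), against 31.7% rising and 27.9% falling over all tested genes. *Tgfb1*, a growth factor, fell by 2.24 (edgeR adjusted p = 1.3e-06) and rose 3.03-fold after withdrawal (edgeR adjusted p = 3.3e-05). *Ccnd1*, which encodes cyclin D1, rose by 3.99 (edgeR adjusted p = 2.2e-06), from 122.8 ± 61.3 to 2016 ± 271.4 CPM (SD, n = 3), while *Jun* fell. *Hbegf*, an EGF-family ligand, rose by 1.71 (edgeR adjusted p = 5.7e-07). On withdrawal 5 of the 13 rose, 3 fell (2 to 6 over the alternatives) and 5 were not called, with a median of -0.22. The number rising with dbcAMP ranged from 4 to 7 over the alternatives. Against undifferentiated cells 3 were higher after withdrawal and 4 were lower (2 to 5 over the alternatives), with a median of -0.078. Rises and falls thus stood side by side in all 3 comparisons.

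The ubiquitin ligase genes known for c-Jun turnover had 3 tested members of 4. *Rfwd2*, which encodes COP1, fell by 0.30 (edgeR adjusted p = 0.005) and *Itch* by 0.31 (edgeR adjusted p = 0.00677), both under dbcAMP, and *Itch* was not called within the project of replicates 1 and 2 (edgeR adjusted p = 0.1). After withdrawal *Itch* rose by 0.49 (edgeR adjusted p = 0.00067). c-Jun protein was not measured.

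**Figure D4:**
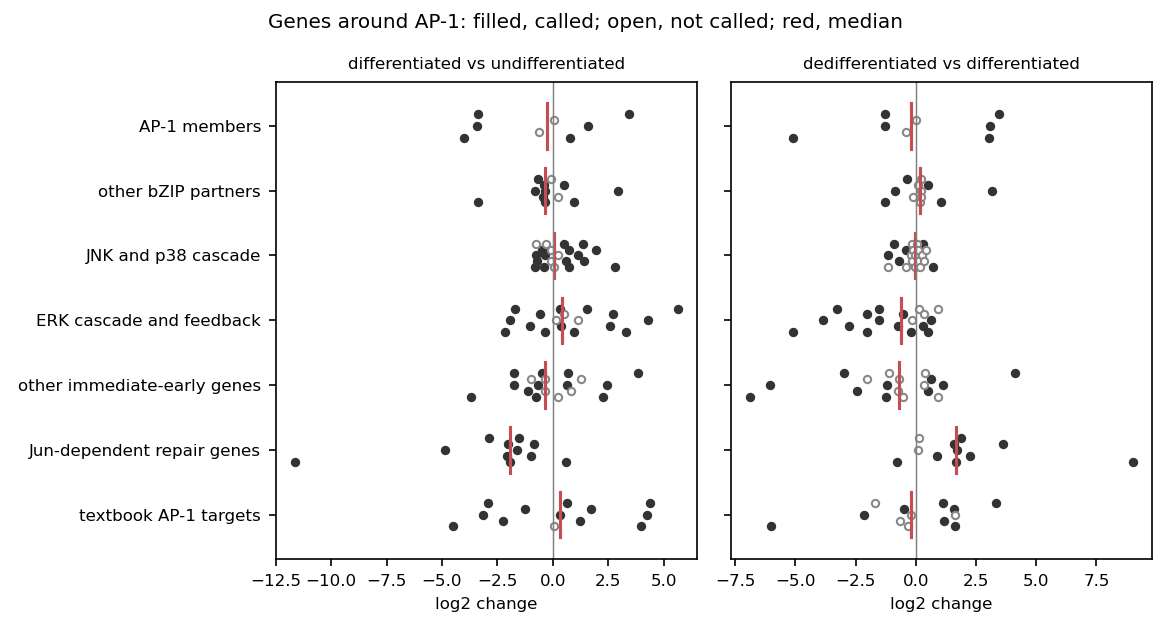
Log2 change of each tested gene in the AP-1 family and 6 lists around it, with dbcAMP (left) and after withdrawal (right); filled points were called, open points were not, and red bars are medians. The Jun-dependent repair genes lie mostly left of 0 with dbcAMP (median -1.94) and right of 0 after withdrawal (median 1.66), and the other lists spread to both sides; the point at -11.64 is *Gap43*, which was at 0 to 0.442 CPM in differentiated libraries.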

How the data were processed

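Cell mRNA was sequenced from 9 libraries of cultured rat Schwann cells. Directional libraries were made from total RNA, per the labels' protocols. The values are estimated counts per gene that the authors made with Salmon, per the submitters' processing notes and the deposited table's name; build and annotation are not given in the sources used here. Before testing, these counts were rounded, which altered the 1.15% that held a fraction. Replicate numbers follow the sample titles, from which the suffixes in the column names differ. Vesicle microRNA and lncRNA files were not used.

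Tests used edgeR 4.0.16, run in R 4.3.3 (filterByExpr with a minimum count of 10, TMM scaling, glmQLFit over all 9 libraries without covariates, glmQLFTest per pair of stages), with Benjamini-Hochberg adjustment over 10372 genes and calls at an adjusted p under 0.05. The code was tested on simulated data. CPM are counts over column totals, and log2 CPM used a prior count of 2. The table's rows *Rfwd2*, *Cyr61* and *Ctgf* were used for genes now named *Cop1*, *Ccn1* and *Ccn2*. Motifs were searched on both strands of RefSeq windows of GRCr8, which serve as sequence only, since the table's build is unknown.

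The members and lists were chosen with earlier results of these data known. Beside the members, the text names up to 2 rising and 2 falling called genes per list with the smallest p under dbcAMP, 5 genes by fixed choice (*Mapk8*, *Mapk9*, *Egr1*, *Ngfr*, *Gap43*) and the 5 genes most like *Jun*. Some genes under this rule are not reported here. Between undifferentiated and differentiated cells, same-numbered libraries deviated together from their stage means (correlations 0.234 to 0.304), so their numbers, which come from the titles and are not said there to mark a shared culture or day, were taken to pair them in that comparison, where the block changed no call of a member. The alternatives were a replicate block, the sequencing project as a covariate or within replicates 1 and 2 alone, DESeq2 1.42.0 size factors, library size alone, the DESeq2 Wald test, no filter, only the 2 stages compared and leaving out each library.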

Additional observations from a re-analysis of the deposited data

How the results depend on the processing

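Of 336 values of the 8 tested members under the alternatives, 321 kept their side of the threshold, 13 lost a call and 2 gained one. A change of sign with a call in either analysis occurred in 0. Changes without a call could switch sign and still count among the 321. For *Atf3* between dedifferentiated and undifferentiated cells, the log2 change ran from -0.15 to 0.38. The number of members called between dedifferentiated and undifferentiated cells was 2, and 1 with the replicate block, with the sequencing project as a covariate, with library size alone and with only the 2 stages compared, where *Fosl1* was lost. It was 1 to 2 with each library left out and 0 within the project of replicates 1 and 2, where *Fosl2* was lost too. For the other comparisons the number of called members was 6, and 5 to 7 over the alternatives.

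Same-numbered libraries of different stages correlated in their deviations from stage means by 0.175 on average (0.028 to 0.304). The mean for other numbers was -0.0837. Deviations within a stage sum to 0, which ties the second mean to the first, so it is no separate comparison. The 3 pairs of undifferentiated and differentiated libraries stood at 0.304, 0.234 and 0.269, while the other comparisons each held a pair under 0.1 and share only a number. The replicate block moved the calls over all genes from 6179 to 6325, 4809 to 5031 and 3045 to 3256, and among the members it changed only the *Fosl1* call (edgeR adjusted p = 0.0542). Within replicates 1 and 2 there were 4358, 2606 and 1283 calls, in a fit with fewer libraries. *Egr1* between dedifferentiated and undifferentiated cells (log2 -5.63, edgeR adjusted p = 0.0298) lost its call without undifferentiated replicate 2 (log2 -4.03, edgeR adjusted p = 0.112) and without each dedifferentiated library (log2 -6.06 to -5.27, edgeR adjusted p = 0.0778 to 0.0895), and within replicates 1 and 2 (edgeR adjusted p = 0.0563). Depth limits *Batf3* and the *Fosb* values of undifferentiated and dedifferentiated libraries, which held 4 to 39 counts. The differentiated libraries held 100 to 599 *Fosb* counts and still differed 6.27-fold.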
